A study of Mus musculus with 35 samples.

Results

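The chromatoid body (CB) is a large cytoplasmic RNA granule of round spermatids, the haploid male germ cells that have completed meiosis. It gathers the DEAD-box helicase DDX4, PIWI proteins, piRNA precursors, many other transcripts, and proteins of nonsense-mediated decay (NMD), the pathway in which UPF1 marks an RNA and the endonuclease SMG6 cuts it. The comparison described here asks which RNAs were recovered at a higher or lower level with CBs when Smg6 was deleted in the germline. It used all 7 long RNA libraries of isolated CBs among the 35 samples of the series, 3 from Smg6 conditional knockout (cKO) mice and 4 from controls. The cKO mice were adult Smg6(fx/fx);Ngn3Cre+ animals and the controls were Smg6(fx/fx);Ngn3Cre- or Smg6(fx/wt);Ngn3Cre- littermates, all on a mixed C57Bl/6J and SV129 background. Ngn3 drives Cre in postnatal spermatogonia, so the somatic cells of the testis keep Smg6, while the controls carry floxed alleles without Cre. Each library came from CBs pooled over several mice, captured with an antibody against DDX4 from fixed and sonicated germ cells of whole testes. Total RNA was sequenced without removal of ribosomal RNA. Libraries are called cKO 1 to 3 and control 1 to 4 as names only.

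The libraries held 3965541 to 16699210 counts over genes and repeat elements. Rn45s, the 45S ribosomal RNA precursor, took 23.5% to 38.2% of them (cKO 31.3% ± 6.80, SD, n = 3, control 29.2% ± 6.10, SD, n = 4, two-sided exact permutation p = 0.743, where 3 against 4 libraries can give no p below 0.0571). It was set apart, which left 1279893 to 7684257 gene counts per library, with cKO 2 the shallowest. Levels below are depth-scaled counts (CPM) of gene rows without Rn45s, adjusted by the trimmed mean of M-values (TMM). cKO 1 stood apart from the other cKO libraries: on the first principal component, with 64.0% of the variance, it lay at -27.0, the other cKO libraries at -83.3 and -62.6, and the controls between 34.2 and 50.0. Results that depend on cKO 1 or on another single library are given with and without it.

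Of 24411 gene rows, 14050 reached 10 counts in 3 or more libraries and were tested with edgeR's quasi-likelihood test. At an adjusted p of at most 0.05, 2358 genes were higher in cKO CBs (16.8%) and 2684 were lower (19.1%). Together these were 35.9% of the genes. Counts of list members that rose or fell are to be read beside these shares. Of them, 756 were higher (5.38%) and 841 lower (5.99%) by a log2 difference of at least 1.5, and these are referred to as called genes. The cKO and control libraries did not overlap for 2463 genes that were higher (17.5%) and 3012 that were lower (21.4%). The median log2 difference over all tested genes was 0.03. Without cKO 1 there were 948 called genes higher and 1110 lower, and without cKO 2 there were 438 higher and 741 lower. In the text, "rose" and "fell" mean an adjusted p of at most 0.05 in edgeR over all 14050 genes, and differences are log2 values of cKO over control.

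Smg6 itself did not pass the test. It stood at 532, 403 and 445 CPM in the cKO libraries and 471, 477, 517 and 457 CPM in the controls, so the groups overlapped (log2 difference -0.06, SE 0.17, adjusted p = 0.80 by edgeR). The deletion removes a part of the gene and the counts cover the whole gene, so this value does not check the deletion.

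Transcripts of late spermatids, which pack the sperm nucleus and build the tail, were much lower in cKO CBs. Of 15 late spermatid genes on a marker list, 15 fell, with a median of -2.71, and they fell whichever cKO library was left out. In round spermatids (RS), sequenced as poly(A) RNA in 3 cKO and 3 control libraries, the same 15 genes were lower with a median of -3.94, where 34.3% of all 17491 genes tested were lower and 38.4% higher. In bulk fractions such as these, fewer cells or granules of a kind and less RNA in each cannot be told apart. The summed level of the 15 genes was 1441, 1243 and 1243 CPM in the cKO libraries against 8093, 5331, 9501 and 10648 CPM in the controls, without overlap (exact permutation p = 0.0571, the smallest possible, adjusted p = 0.124 over 13 summed levels and shares).

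Prm1, a protamine that replaces histones in the condensing nucleus, stood at 56.5, 63.3 and 57.2 CPM in cKO CBs and 715, 494, 970.1 and 1182 CPM in control CBs (log2 difference -3.84, SE 0.30, adjusted p = 9.8e-06). Prm2, the second protamine and among the 10 most abundant RNAs of control CBs, went from 2302, 1144, 2562 and 2522 CPM in controls to 203, 258 and 227 CPM in cKO (log2 difference -3.22, SE 0.29, adjusted p = 2e-05). The transition protein genes Tnp1 and Tnp2, whose products bind DNA between histones and protamines, had differences of -2.40 and -2.35. The groups did not overlap for any of these 4 genes, and the 3 cKO libraries, cKO 1 included, lay close together. Prm3 (-1.89) and the spermatid linker histones Hils1 (-1.46) and H1fnt (-1.31) fell less far.

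**Figure D1:**
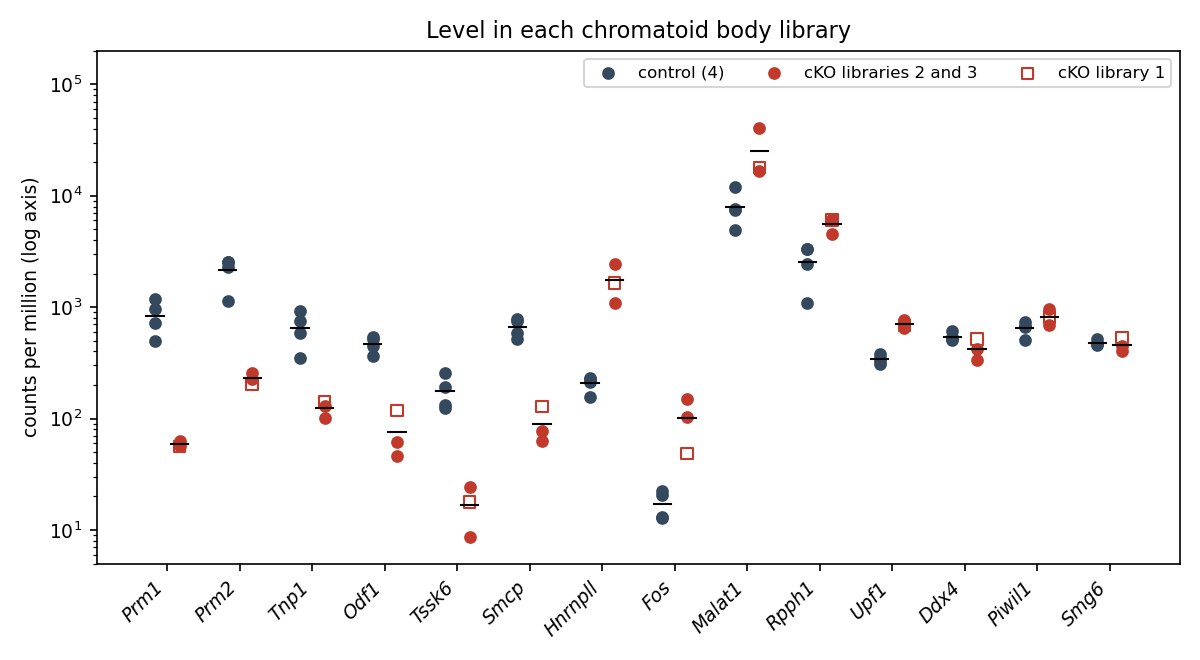
Level in CPM (log axis) of 14 genes in each chromatoid body library. Points are libraries (dark, 4 controls; red, cKO, with cKO 1 as an open square) and bars are group means. The cKO and control points are separate for Prm1, Prm2, Tnp1, Odf1, Tssk6, Smcp, Hnrnpll, Fos, Malat1, Rpph1 and Upf1 and overlap for Ddx4, Piwil1 and Smg6.

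Most genes of the sperm tail list fell as well. Of 20 tail sheath and outer dense fiber genes, 17 fell, with a median of -1.07, and 13 to 17 fell when a cKO library was left out. Odf1, a main outer dense fiber protein, stood at 119, 46.5 and 61 CPM in cKO CBs and 452, 366, 518 and 543 CPM in control CBs (log2 difference -2.63, SE 0.29, adjusted p = 4.1e-05). Akap4 and Akap3, anchors of protein kinase A in the fibrous sheath, had differences of -2.56 and -1.74, Fscb, a calcium-binding sheath protein, -2.79, and Oaz3, an antizyme of the germline, -2.95. Smcp, a protein of the mitochondrial capsule of sperm, fell from 756, 513, 580.0 and 783 CPM to 128, 62.5 and 77.2 CPM (log2 difference -2.87, SE 0.27, adjusted p = 2e-05). Odf2, an abundant outer dense fiber RNA of control CBs, gave a weaker result. It stood at 1228, 1205 and 2244 CPM in cKO and 2600, 1800, 3374 and 3617 CPM in control CBs, with overlap (log2 difference -0.87, SE 0.29, adjusted p = 0.032), and its adjusted p rose above 0.05 without cKO 1 (0.10), cKO 2 (0.12), control 1 (0.054), control 3 (0.091) or control 4 (0.090), and with transcript counts summed per gene (0.067).

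The 6 testis-specific serine kinase genes all fell, with a median of -1.66. Tssk6, which is needed for sperm head shaping, showed the strongest difference of the 6, with 17.9, 24.1 and 8.71 CPM in cKO and 193, 123, 257 and 132 CPM in control CBs (log2 difference -3.47, SE 0.35, adjusted p = 2.7e-05), and Tssk2 differed by -1.86. Of 11 germ cell glycolysis genes, 8 fell, with a median of -1.10. They included Gapdhs (-2.74), Pgk2 (-1.89) and Hk1 (-1.83), enzymes of sperm energy supply. Ldhc, the lactate dehydrogenase of germ cells that is already made in meiosis, fell by less, from 789, 823, 978 and 1092 CPM in controls to 607, 537 and 494 CPM in cKO (-0.75).

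Acrosome and egg fusion genes split. Of 17, 10 fell, with a median of -0.62. The hyaluronidase gene Hyal5 (-2.23), the acrosomal vesicle gene Acrv1 (-1.62) and Izumo1 (-1.25), which encodes the sperm protein bound by the egg, were among those that fell. Zpbp2, Adam2 and Spata16, which act in acrosome formation or sperm binding, had differences of -0.16, -0.05 and -0.03 and did not pass the test. Of 11 transcription regulators of spermiogenesis, 5 fell, among them Fhl5 (-2.44), the coactivator of CREM, Spz1 (-2.15) and Crem itself (-0.80), while 6 did not pass the test. Without cKO 2, 3 of the 11 fell. Of 24 meiotic genes, 4 fell and 2 rose (1 without cKO 1, cKO 2, control 1, control 2 or control 4), with a median of -0.18, shares not above those over all genes. The median difference went from -0.18 for meiotic genes to -0.62 for acrosome genes and -2.71 for late spermatid genes, a description of lists whose members were known when they were chosen.

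**Figure D2:**
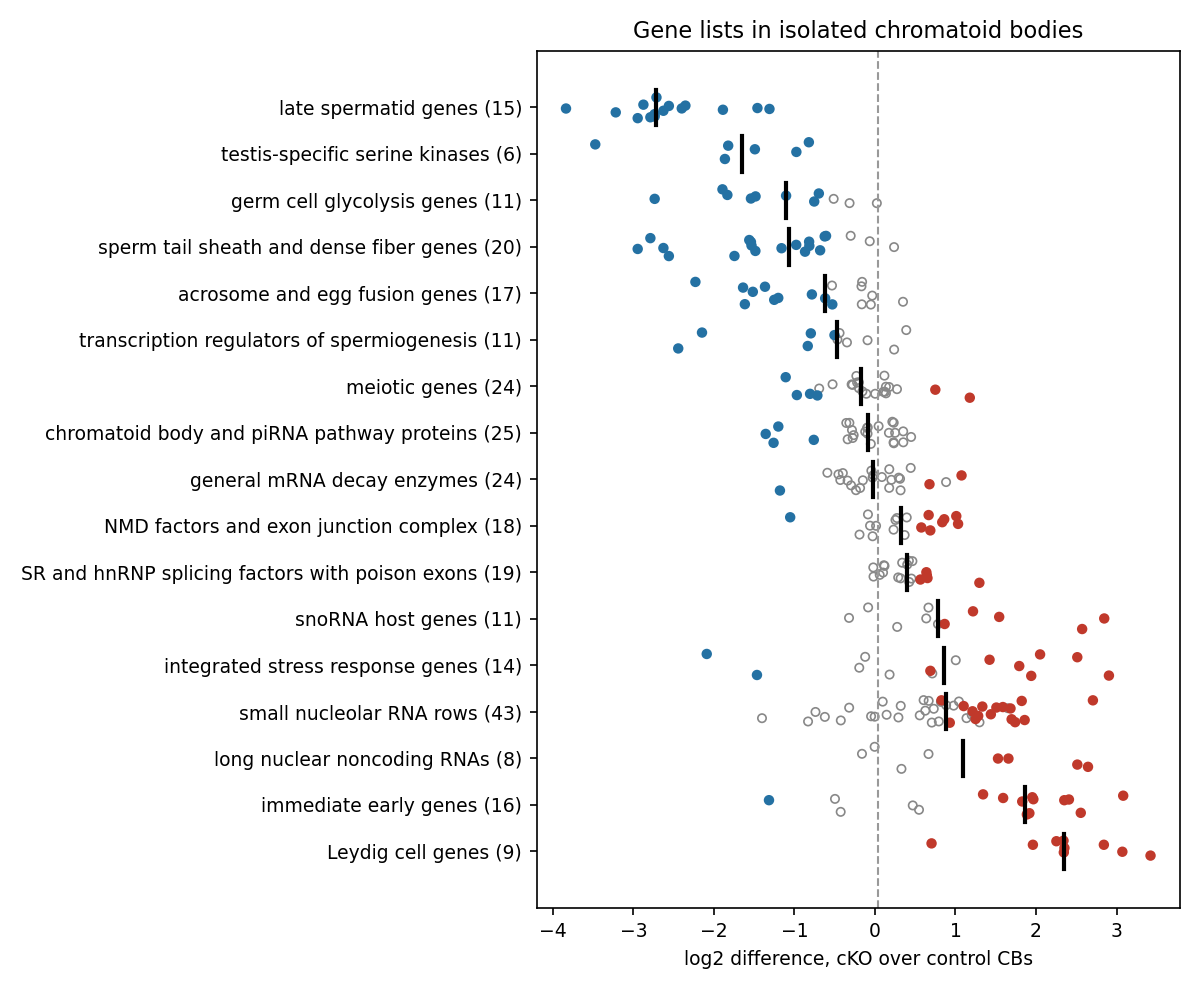
Log2 difference of cKO over control chromatoid bodies for the members of 17 gene lists, with the number tested in parentheses. Filled points passed an adjusted p of 0.05 (blue lower, red higher), open points did not, black bars are list medians and the dashed line is the median of all tested genes, 0.03. Late spermatid genes lie furthest left, with a median of -2.71, and Leydig cell genes furthest right, with a median of 2.35.

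Where called genes averaged 100 or more normalized counts and the groups did not overlap, the 12 lowest were Car2, Prm1, 1700012A03Rik, Fscn3, Ubqlnl, Csnka2ip, Tssk6, Phospho1, 1700034I23Rik, Tmem56, Prm2 and Dnajb8, with differences from -4.17 to -3.21. Car2, a carbonic anhydrase, stood at 2.9, 6.41 and 0.622 CPM in cKO and 41.3, 31.4, 43 and 72.8 CPM in control CBs, and its difference was -3.44 without cKO 3 and -4.90 without cKO 2. Fscn3, a testis actin-bundling protein, had 3.86, 3.21 and 6.53 CPM against 42.7, 31.4, 80.9 and 108 CPM. The casein kinase interactor Csnka2ip had 6.76, 6.41 and 6.22 CPM against 58.4, 59.2, 75.1 and 95.3 CPM. The control libraries of these 3 genes were all several-fold above every cKO library. Ubqlnl was high in control 4 (40.4, 28.9, 49.2 and 141 CPM in controls 1 to 4), and its difference moved from -3.65 to -2.89 without that library. For 1700034I23Rik it moved from -3.29 to -4.03 without cKO 1. Genes named from RIKEN testis clones of the 1700 series, most of them uncharacterised, fell often: 166 of 308 fell and 4 rose, with a median of -0.94. The number that rose was 2 without cKO 1 or control 1, 1 without cKO 2 and 0 without control 4, while 137 to 177 fell when 1 library was left out. Among 850 annotated long noncoding genes, 152 were called lower (17.9%) and 24 higher (2.82%), against 5.99% and 5.38% of all genes.

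A second large group was higher in cKO CBs. The 12 highest by the same rule were Bhmt, Insl3, Anp32b, Ptms, Hnrnpll, Abca1, 2410006H16Rik, Meg3, Kif1c, Ptma, Myh9 and Fos, from 2.56 to 3.56. Hnrnpll, a regulator of alternative splicing, was the most abundant of the 12 in each of the 3 cKO libraries. It stood at 1651, 2459 and 1097 CPM in cKO and 211, 227, 232 and 158 CPM in control CBs (log2 difference 3.07, SE 0.26, adjusted p = 1.6e-05). The noncoding gene 2410006H16Rik had 77.2, 112 and 96.1 CPM against 14.8, 14.6, 12.5 and 14.7 CPM (2.73), with a narrow spread in both groups. For both genes every cKO library, cKO 1 included, lay several-fold above every control library.

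Others depended more on one library. Anp32b, Ptma and Ptms, which encode small acidic nuclear proteins, were far higher in cKO 2: Anp32b stood at 658, 1949 and 323 CPM in the cKO libraries and 86.4, 85.5, 177 and 67.4 CPM in the controls (3.24). Without cKO 2 the differences were 2.26 for Anp32b, 2.03 for Ptma (from 2.62) and 1.53 for Ptms (from 3.13), and without control 3 it was 3.78 for Ptms. Bhmt, Insl3, Abca1, Kif1c, Meg3 and Myh9 were lowest of the cKO libraries in cKO 1. Abca1, a cholesterol exporter, had 96, 441 and 317 CPM in cKO and 29.6, 24.6, 62.2 and 27.4 CPM in control CBs (3.01).

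Insl3, an insulin-like hormone of Leydig cells, the androgen-producing cells between the tubules, moved with the other Leydig genes. Insl3 stood at 33.8, 177 and 320.1 CPM in cKO and 12.3, 5.68, 31.7 and 18.6 CPM in control CBs (3.42, and 2.65 without cKO 3). All 9 Leydig genes tested rose, with a median of 2.35, and 9, 8 and 6 rose without cKO 1, 2 and 3. Their summed level was 125, 629 and 866 CPM in the cKO libraries against 74.1, 60.6, 157 and 114 CPM in the controls, so that cKO 1 lay within the control range (exact permutation p = 0.114, adjusted p = 0.186). Cyp11a1, which starts steroid synthesis, had 13, 97 and 121 CPM against 6.51, 2.7, 19.6 and 9.7 CPM (3.07), and Star, its cholesterol carrier, differed by 1.96. Cyp17a1, a later enzyme, overlapped in cKO 1 (8.69, 75.4 and 159.9 CPM against 10.3, 5.14, 23.4 and 25.7 CPM, 2.35), and was 1.31 without cKO 3 (adjusted p = 0.16). With DESeq2 its adjusted p was 0.052.

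Genes of other cells moved unevenly, where 16.8% of all genes rose and 19.1% fell. Of 10 Sertoli cell genes tested, 4 rose (2 without cKO 2), and 8 of the 18 listed were too low to test. Their summed level was 78.2, 227 and 171 CPM in cKO and 58.4 to 88.5 CPM in control CBs. The Sertoli gene Rhox8 rested on cKO 2, with 8.2, 71.4 and 5.29 CPM against 2.47, 1.35, 5.42 and 1.68 CPM (3.38, and 1.41 with adjusted p = 0.066 without it). Of 11 spermatogonial genes, 5 rose (3 without cKO 2 or control 1), including Zbtb16 (2.65), a factor of undifferentiated spermatogonia, and Stra8 (2.96, and 1.68 without cKO 2), which acts at entry into meiosis. Their sum was 148, 283 and 139 CPM in cKO against 80.4 to 106 CPM in control CBs. Of 6 macrophage genes tested, 3 rose and 1 fell, and 9 of the 15 listed were too low to test. With no filter beyond 1 count, 11 of the list rose. Csf1r, the receptor for a macrophage growth factor, had 5.31, 52.1 and 41.4 CPM against 4.04, 2.98, 11.3 and 4.14 CPM (2.64), whereas Aif1 fell (154, 100.2 and 101 CPM against 278, 286, 376 and 271 CPM, -1.35) and was the most abundant of the 6. The macrophage sum, 179 to 208 CPM in cKO and 295 to 408 CPM in control CBs, was mostly Aif1 in the controls. Without Aif1 the other 5 genes summed to 24.1, 107 and 106 CPM in cKO and 21.3, 22.5, 33.0 and 24.6 CPM in control CBs, so the order of the groups turned for cKO 2 and cKO 3, and cKO 1 lay within the control range. Peritubular myoid genes had 1 rise and 1 fall (Actg2, a smooth muscle actin, -2.76) among 6, with 0 rises without cKO 3, control 1 or control 2. Of the other cells, 1 of 5 endothelial genes fell. The peritubular and endothelial counts were near the shares over all genes. The 2 erythroid genes tested had the same difference (1.07), so they may not be 2 separate measurements. They did not pass the test, although both rose without cKO 1. The part that RNA of these cells has in the higher genes was not tested.

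**Figure D3:**
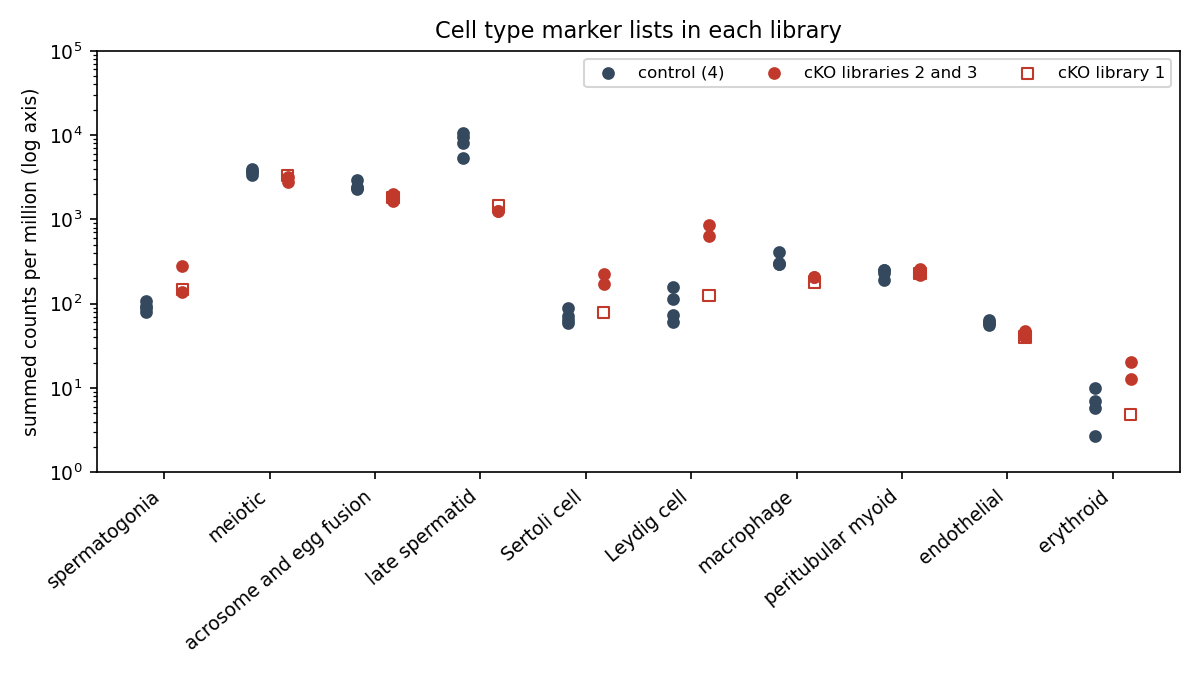
Summed CPM (log axis) of 10 cell type marker lists in each chromatoid body library (dark, 4 controls; red, cKO, with cKO 1 as an open square). Late spermatid sums are separate, at 1243 to 1441 in cKO against 5331 to 10648 in controls, and the Leydig sum of cKO 1 (125) lies within the control range of 60.6 to 157.

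Immediate early genes, most of which encode transcription factors, are switched on by cells within minutes of a stimulus. Of 16 tested, 11 rose and 1 fell, with a median of 1.86, and 12, 9 and 9 rose without cKO 1, 2 and 3, with 2 falls without cKO 1 or cKO 3. Fos stood at 48.7, 149.9 and 104 CPM in cKO and 22.2, 12.7, 20.4 and 13.2 CPM in control CBs (log2 difference 2.56, SE 0.33, adjusted p = 0.0001). Fosb, its close relative, had 135, 201 and 151 CPM against 68.7, 37.6, 37.6 and 23.5 CPM (1.95). Both were higher in every cKO library than in every control library. Jun (1.83), Junb (2.41, and 1.82 without cKO 2), Egr1 (2.35) and Ier2 (3.08, and 2.45 without cKO 2) rose as well, each lowest of the cKO libraries in cKO 1. Egr3, another zinc finger factor of the family, fell (83.5, 44.1 and 38 CPM against 176, 161, 136 and 77.2 CPM, -1.32).

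Genes of the integrated stress response, in which ATF4 raises a set of targets, did not move one way. Of 14 tested, 7 rose and 2 fell, with a median of 0.86, and 1 fell without cKO 2, cKO 3, control 1, control 2 or control 3. The factors of the response rose: Atf4 (0.69), Atf3 (2.51), Cebpb (2.91) and Ddit3, which had 99.4, 93 and 127 CPM in cKO and 42.2, 27.6, 50.5 and 40.1 CPM in control CBs (1.42). Asns, asparagine synthetase and a classical ATF4 target, fell from 53.7, 60.9, 80.9 and 83.3 CPM to 27.5, 30.5 and 19.3 CPM (-1.46). The other gene that fell was called lower, and the lowest difference of the list was -2.09. Slc7a11, Sesn2 and Phgdh, also targets, had differences of -0.12, 0.18 and -0.19 and did not pass the test.

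Several nuclear and structural noncoding RNAs were among those that rose. Of 8 long nuclear noncoding RNAs, 4 rose (Malat1, Neat1, Meg3 and Rian), with a median of 1.10, and at least 4 rose without any one cKO library. Malat1, an RNA of nuclear speckles and among the most abundant RNAs in both genotypes, stood at 17939, 40632 and 16636 CPM in cKO and 7421, 7584, 11875 and 4908 CPM in control CBs (log2 difference 1.66, SE 0.37, adjusted p = 0.0038). Neat1, the scaffold of paraspeckles, had 1502, 5670 and 2292 CPM against 584, 436, 877 and 316 CPM (2.51, and 1.79 without cKO 2). The groups did not overlap for either RNA.

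Rmrp and Rpph1, the RNA parts of the ribonucleases MRP and P, had 4610, 4106 and 2601 CPM and 6042, 6192 and 4529 CPM in the cKO libraries. Their control values were 1504, 1453, 2065 and 881 CPM and 3313, 2459, 3318 and 1097 CPM (1.35 and 1.13). Rnu12, a small nuclear RNA of the minor spliceosome, varied widely, with 6029, 13887 and 2637 CPM in cKO and 2108, 1134, 4417 and 734 CPM in control CBs (log2 difference 1.84, SE 0.56, adjusted p = 0.020). Its call was lost without cKO 2 (1.05, adjusted p = 0.16), and at adjusted p = 0.052, 0.062 and 0.052 without control 1, 2 or 4, while without control 3 the difference was 2.55. Neither Rnu12 nor Rnu11 passed with DESeq2 (adjusted p = 0.078 and 0.14). Rnu11 of the same spliceosome behaved likewise (1.31, and 0.64 without cKO 2, adjusted p = 0.31, and 2.06 without control 3), with adjusted p of 0.12, 0.11 and 0.11 without control 1, 2 or 4. The 4 of 6 structural RNAs that rose were 2 without cKO 2, control 1, control 2 or control 4.

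Small nucleolar RNAs guide RNA modification, and several of their host genes are known NMD targets. Most members of both lists did not pass the test, as for all genes, of which 16.8% rose and 19.1% fell. Of 43 small nucleolar RNA rows, 16 rose and 0 fell, with a median of 0.88. The number that rose was 9 or 10 without cKO 1, cKO 2, control 1 or control 4. Snora74a had 9.65, 29.7 and 14 CPM in cKO and 2.02, 1.89, 3.34 and 3.1 CPM in control CBs (2.71), without overlap. Snord17 had 366, 345 and 286 CPM against 139, 189, 300.0 and 125 CPM (0.83), and its adjusted p was 0.053, 0.056, 0.077 and 0.062 without cKO 1, cKO 2, control 1 and control 4. Of 11 host genes tested, 5 rose and 0 fell, with a median of 0.78. Gas5 stood at 142, 80.2 and 72.8 CPM in cKO and 42.9, 49, 33.4 and 43.4 CPM in control CBs (log2 difference 1.22, SE 0.24, adjusted p = 0.0016). Snhg12 (2.57), Snhg5 (0.87), Snhg7 (1.54) and Snhg11 (2.85, and 1.92 without cKO 2) also rose, while Snhg1 and Snhg3 had differences of 0.66 and -0.32 and did not pass the test.

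Among 18 factors of NMD and the exon junction complex, many of which are themselves NMD targets, 7 rose and 1 fell. Over all genes, 16.8% rose and 19.1% fell. The median of the list was 0.32 and its lowest difference -1.05, with no difference past 1.5. Upf1, the central helicase, had 688, 767 and 645 CPM in cKO and 381, 348, 327 and 312 CPM in control CBs, without overlap (log2 difference 1.03, SE 0.16, adjusted p = 0.00042). Upf3b (0.84) and the exon junction proteins Rbm8a (0.67), Casc3 (0.69) and Rnps1 (0.58) rose by less. For Upf3a (1.01) the adjusted p was 0.12, 0.055 and 0.053 without cKO 2, control 2 and control 4. For Smg9 (0.86) it was 0.15 without cKO 3, where the difference was 0.38, and 0.051 without control 2. Without control 2, 4 of the 18 rose.

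General mRNA decay enzymes had few members past the test, with 2 rises and 1 fall among 24 and a median of -0.02. Both shares were below those over all genes (16.8% and 19.1%). There was 1 rise without cKO 2 or control 2, and there were 3 falls without cKO 1 and 2 without control 4. Exosc2, an exosome subunit, rose (1.08) and Dis3, the exosome's catalytic subunit, fell from 88.9, 91.7, 86.8 and 87.3 CPM to 50.2, 34.5 and 32.7 CPM (-1.18). Of 19 SR and hnRNP splicing factors whose own transcripts carry poison exons, 5 rose, where 16.8% of all genes rose, with a median of 0.40. The number was 2 without cKO 1 or without cKO 2, 8 without cKO 3, and 3 without control 1 or control 4. Hnrnpa2b1 led them, with 1091, 1025 and 638 CPM in cKO and 337, 434, 399 and 324 CPM in control CBs (1.30), without overlap. Srsf3 (0.64) did not pass without cKO 1, cKO 2 or control 1 (adjusted p = 0.064, 0.054 and 0.062). Srsf5 (0.64) did not pass without cKO 1, cKO 2, control 1, control 2 or control 4 (adjusted p = 0.053, 0.15, 0.066, 0.077 and 0.076).

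Genes that the study followed by name split in CBs. Rassf1, a tumour suppressor, rose from 108, 95.5, 89.3 and 90.6 CPM in controls to 192, 191 and 253 CPM in cKO (log2 difference 1.15, SE 0.17, adjusted p = 0.00023). Ptch1, the Hedgehog receptor, had 6.76, 35.3 and 28 CPM against 3.59, 2.16, 6.26 and 2.46 CPM (2.75), lowest of the cKO libraries in cKO 1. Usp22 (0.94), a deubiquitinase, and Tsr2 (1.42), a ribosome assembly factor, were near the threshold. The adjusted p of Usp22 was 0.11, 0.051 and 0.060 without cKO 3, control 1 and control 4, and that of Tsr2 was 0.12, 0.070 and 0.082 without cKO 2, control 1 and control 4. Lpxn (0.20), Slc38a6 (-0.06) and Wdr82 (-0.23) did not pass the test. Fkbpl did not pass either (-0.75, adjusted p = 0.057), but it passed without cKO 3 (-1.25, adjusted p = 0.0050) or control 2 (adjusted p = 0.029). The study chose these genes on samples of this series, so their direction is not independent evidence.

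RNAs that encode CB and piRNA pathway proteins were mostly not past the test. Of 25 tested, 4 fell, with a median of -0.09 and no difference past 1.5 (19.1% of all genes fell). Ddx4, the protein captured in the isolation, had 519, 335 and 418 CPM in cKO and 513, 611, 512 and 537 CPM in control CBs (log2 difference -0.36, SE 0.19, adjusted p = 0.15), Piwil1, the PIWI protein of round spermatids, differed by 0.35 (adjusted p = 0.17), and Tdrd6, a scaffold of the CB, by 0.17 (adjusted p = 0.49). The groups overlapped for these 3. The 4 that fell were Mael (-0.76) and Gtsf1 (-1.26), which act in transposon silencing, Tsks (-1.20), a substrate of the testis-specific serine kinases, and Kif17 (-1.36), a motor protein. Kif17 went from 403, 295, 452 and 409 CPM in controls to 153, 114 and 186 CPM in cKO.

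Precursors of piRNAs, long single-stranded transcripts that are cut into the small RNAs bound by PIWI proteins, are a known cargo of the CB. Of 214 precursors, 20 were higher (9.35%) and 8 lower (3.74%) when p-values were adjusted over the precursors, with the same threshold, with a median difference of 0.13. The lower count depended on library and tool: 14 were lower without cKO 1 and 5 without cKO 3, TMM factors made from the precursors alone gave 16 higher and 16 lower with a median of 0.01, and DESeq2 gave 21 higher and 23 lower. Leaving out 1 library gave 14 to 22 higher, and without cKO 1 the median was -0.04. By the stricter rule 6 were called higher (2.8%) and 0 lower (0%) by edgeR and also by DESeq2, and 46 had an unadjusted p under 0.05 in either direction. Without cKO 2, 1 was called higher. The summed level of all precursors, on the scale of the genes, was 235944, 194417 and 178171 CPM in cKO and 176145, 184452, 142710 and 231181 CPM in control CBs, with overlap.

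The called precursors were pi-Mafg, pi-Foxo3, pi-Mllt6, pi-Ssh1, 7-qD2-40 and pi-Tet3, of which 5 are named for a gene they lie in. The pi-Foxo3 interval covers chromosome 10 from 42181846 to 42276755 on the minus strand (GRCm38/mm10). It stood at 95.6, 353 and 114 CPM in cKO and 44, 40.03, 63.8 and 27.9 CPM in control CBs (log2 difference 2.09, SE 0.32, adjusted p = 1.3e-05), and at 1.28 without cKO 2. pi-Mafg, on chromosome 11 from 120625128 to 120633954 on the minus strand, had 17.4, 89 and 39.2 CPM against 9.21, 13.5, 11.3 and 8.27 CPM (2.17, and 1.48 without cKO 2). All cKO libraries were above all controls for both, and cKO 2 was the highest. These intervals span whole loci, so reads of the messenger RNA of a gene they lie in count as well. The lowest were pi-Lpp (459.9, 599.8 and 347 CPM in cKO against 986, 1241, 1104 and 899 CPM in controls, log2 difference -1.18, SE 0.25, adjusted p = 0.0013) and pi-Luzp1 (-1.10). Among precursors named for a chromosome band that fell, 2-qE5-4 differed by -0.96, and 10-qC1-875 by -0.85, which did not pass without cKO 2 or cKO 3 (adjusted p = 0.11 and 0.10).

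**Figure D4:**
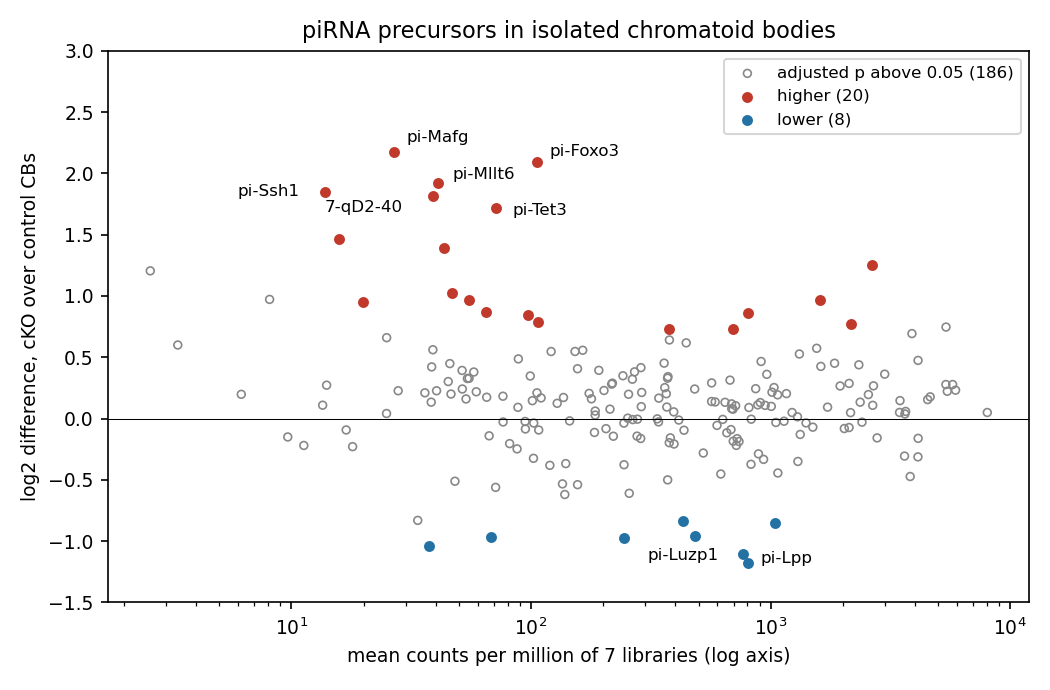
Log2 difference of cKO over control chromatoid bodies for 214 piRNA precursors against their mean CPM in 7 libraries (log axis). Filled points passed an adjusted p of 0.05, 20 higher (red) and 8 lower (blue), and the other 186 (open) did not. The 6 called precursors have mean levels far below those of the most abundant precursors, most of which lie near 0.

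The most abundant RNAs of the fraction varied widely between libraries of a genotype. Mir6236, a microRNA row whose level exceeded that of nearly all genes, stood at 81978, 55756 and 43540 CPM in cKO and 44134, 22798, 36237 and 14803 CPM in control CBs (log2 difference 1.03, SE 0.39, adjusted p = 0.054), and passed without cKO 3 or control 1 (adjusted p = 0.037 and 0.040) and with DESeq2 (0.0045). Lars2, a mitochondrial leucyl-tRNA synthetase gene, had 14410, 17467 and 45008 CPM against 28508, 53910, 60815 and 29800 CPM (-0.76, adjusted p = 0.19, and -1.43 with adjusted p = 0.018 without cKO 3). Whether these rows share reads with ribosomal RNA was not tested. Dnah8, an axonemal dynein heavy chain, differed by 0.32 and did not pass the test. Akap12, a kinase anchor, fell from 3199, 2278, 5808 and 3603 CPM to 1492, 1907 and 1465 CPM (-1.20). Cfap46, a cilia gene, rose (1.98) with cKO 2 far above the rest (1420, 5937 and 1373 CPM in cKO), and its difference was 0.93 without that library. Hsp90aa1, a chaperone, had the same shape (3463, 8290 and 1924 CPM in cKO and 1527, 1755, 2898 and 1772 CPM in controls, 1.20). It did not pass without cKO 2 (0.44, adjusted p = 0.28) or without control 1, 2 or 4 (adjusted p = 0.083, 0.071 and 0.069), nor with DESeq2 (adjusted p = 0.087), and with transcript counts summed per gene the difference was 0.04 (adjusted p = 0.90).

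To see where CBs differ from the cells that hold them, the genotype difference in CBs was set against that in RS. The 2 fractions were prepared and sequenced differently, CBs as total RNA and RS as poly(A) RNA, so protocol and fraction cannot be told apart in their levels, and the test concerns only the difference of the genotype differences. In RS, 2597 of 17491 genes were called higher (14.8%) and 2021 lower (11.6%). Of 13864 genes tested in both, 733 were called higher in CBs, of which 501 were also called higher in RS (68.3% of the CB genes and 37.1% of the RS genes). Of 832 called lower in CBs, 709 were also called lower in RS (85.2% and 42.9%). Most markers of some other cells were higher in RS by adjusted p: 14 of 15 macrophage, 8 of 9 Leydig, 13 of 17 Sertoli and 6 of 7 erythroid genes. For peritubular and endothelial genes it was 3 of 8 and 0 of 7, and over all RS genes 38.4%. The part that RNA of these cells has in the shared calls was not tested. The interaction of genotype and fraction was called for 460 genes that were more positive in CBs (3.32%) and 325 that were more negative (2.34%), with a median of 0.08. With library size alone in place of TMM factors the counts were 105 and 1465 and the median -0.55, so the split between the directions depends on the scaling. Leaving out 1 RS library gave 300 to 532 and 269 to 413 genes, the 300 without RS control 3.

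The largest group of interactions consisted of genes called higher in RS and not called in CBs (211 of the 325) or called lower in RS and not called in CBs (209 of the 460). A further 100 genes were called lower in both and less so in CBs. Prm2, Tnp1 and Tnp2 belonged to these: Prm2 differed by -3.22 in CBs and -5.36 in RS, an interaction of 2.16 (SE 0.39, adjusted p = 0.0013), and Tnp1 and Tnp2 had interactions of 2.34 and 2.13. Prm1 was not among the 100. Its interaction was 1.24 (SE 0.41, adjusted p = 0.040), short of the size a call needs, and it did not pass the adjusted p when any cKO library, control 1 or control 2 was left out (adjusted p from 0.054 to 0.099) or RS cKO 1, RS cKO 2, RS control 1 or RS control 3 (from 0.055 to 0.12).

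Lpxn, an adhesion adaptor, was 2.57 higher in RS and 0.20 in CBs, an interaction of -2.36 (SE 0.22, adjusted p = 1.2e-05). Rassf1 (-1.84), Slc38a6 (-1.82) and Wdr82 (-1.48) showed the same direction. Among genes that averaged 100 or more normalized counts in CBs, the 5 most negative called interactions were Pisd-ps2 (-3.56), Gm16973 (-3.20), Gm10619 (-3.13), Pfas (-2.77) and Pisd-ps1 (-2.71). Pfas, a purine synthesis enzyme, rose in both fractions, by 3.50 in RS and 0.71 in CBs. Pisd-ps1 and Pisd-ps2 are pseudogenes of one gene and may share reads with it. The snoRNA host Snhg12 rose in both as well, by 5.75 in RS and 2.57 in CBs (interaction -3.14), and Snhg5 had an interaction of -1.67.

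Upf1 rose by 2.12 in RS and 1.03 in CBs (interaction -1.07), whereas Upf3a fell by 0.90 in RS and rose by 1.01 in CBs (interaction 1.93) and Upf3b had an interaction of 1.12. Malat1 was higher in CBs (1.66) and -0.45 in RS, an interaction of 2.14 (SE 0.50, adjusted p = 0.0066), and 1.51 without cKO 2. Neat1 had 1.83 (SE 0.59, adjusted p = 0.034). It did not pass without cKO 2 (1.01, adjusted p = 0.14) or control 1, 2 or 4 (adjusted p = 0.053, 0.063 and 0.058), nor without any RS library other than cKO 1 (adjusted p from 0.059 to 0.084). With library size alone the Neat1, Upf3b and Prm1 interactions did not pass (1.17, 0.49 and 0.60, adjusted p = 0.12, 0.15 and 0.25) and that of Upf1 was -1.71. The 5 most positive called interactions by the same rule were Mir6236 (4.20), 4930567H17Rik (3.11, and 2.13 without cKO 2 and 3.73 without control 3), Ccdc57 (3.08), Mical3 (2.95) and Elfn2 (2.87). Mir6236 was low and uneven in RS, with 3.97, 3.87 and 1.44 CPM in cKO and 8.05, 62.4 and 12.2 CPM in control RS, and its interaction was 2.67 without RS control 2 (adjusted p = 0.0094). Ccdc57, a centrosomal protein gene, fell by 2.66 in RS and stood at 48.7, 83.4 and 68.8 CPM in cKO and 55, 40.8, 49.7 and 55.1 CPM in control CBs (0.40, adjusted p = 0.15, and 0.033 without cKO 1). Mical3, an actin-oxidising enzyme, fell in both, by 3.76 in RS and 0.83 in CBs, the latter with adjusted p of 0.051, 0.060 and 0.055 without cKO 1, cKO 3 and control 3. Hnrnpll and Fos had interactions of 0.28 and -0.94 that did not pass the test (adjusted p = 0.55 and 0.25). The Fos interaction was -0.31 without RS cKO 3 and -1.38 without cKO 2, and it passed with library size alone (-1.59, adjusted p = 0.033).

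**Figure D5:**
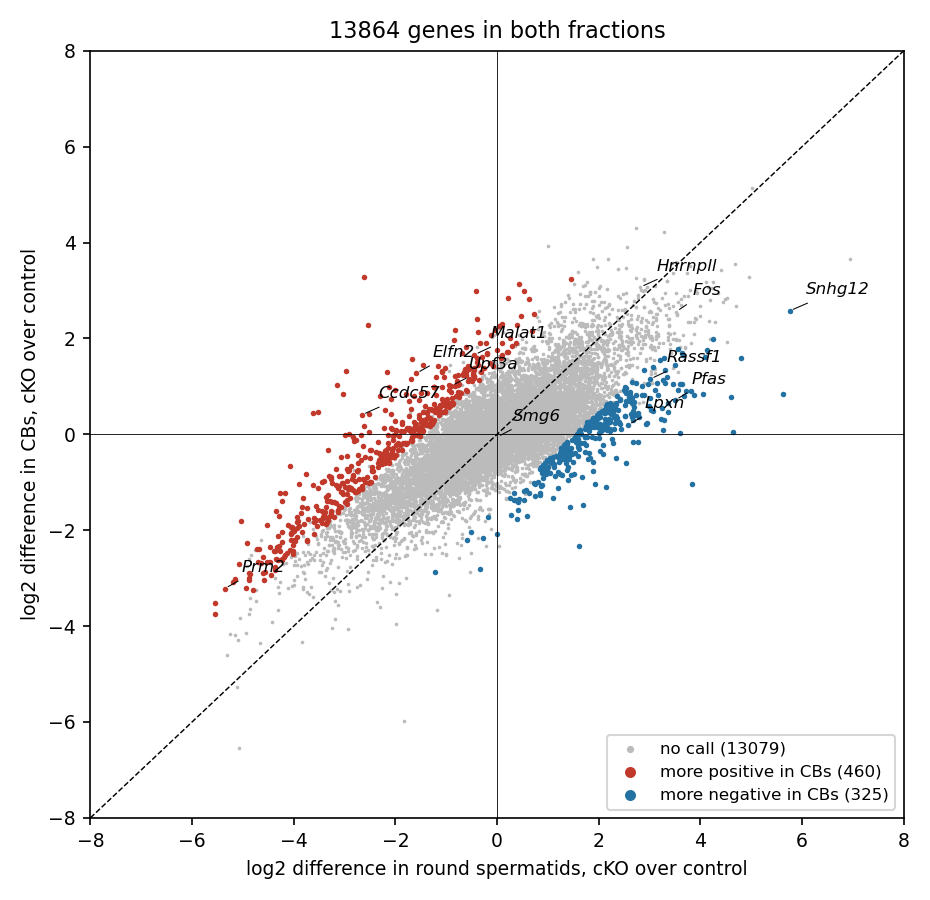
Log2 difference of cKO over control in round spermatids (horizontal) and chromatoid bodies (vertical) for 13864 genes, with the line of equality dashed. Red points mark 460 genes more positive in chromatoid bodies and blue points 325 more negative, by the interaction test. Prm2 lies low on both axes and Hnrnpll high on both.

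Transcript counts were used to describe transcript class and 3′UTR length. Of 30623 transcripts, 680 were called higher (2.22%) and 1454 lower (4.75%), with 328 higher without cKO 2 and 410 without control 4. Protein coding transcripts, 1 per gene, had a median 3′UTR of 962 nucleotides among all 9446 tested, 908 among 300 called higher and 253.5 among 432 called lower. A 3′UTR over 1000 nucleotides was present in 48.7% of all, 46.3% of those higher and 23.8% of those lower. With every protein coding transcript kept, the medians were 602 over all 18564, 623 among 441 higher and 197 among 864 lower. The higher group thus lay below all in the first set and above all in the second. Transcripts annotated as nonsense_mediated_decay, the annotated substrates of the pathway, were called higher in 25 of 1959 cases (1.28%) and lower in 58 (2.96%), with a median of 0.06. The share of higher calls was below the 2.22% over all transcripts, a difference that was not tested. Retained intron transcripts gave 73 higher and 95 lower of 4515 (median 0.10). A read shared among transcripts was counted as fractions, so counts of both classes may include reads from other transcripts of the gene. They therefore cannot show whether transcripts of these classes accumulated.

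Counts for large housekeeping lists are given beside the 16.8% of all genes that rose and the 19.1% that fell. Of 81 ribosomal protein genes, 3 rose and 5 fell (median -0.12), of 70 nuclear respiratory chain genes, 3 rose and 11 fell (median -0.08), and of 42 proteasome subunit genes, 5 rose and 6 fell (median -0.03). Of 24 clustered histone genes, 2 rose and 1 fell, of 20 germ cell RNA-binding protein genes, 2 rose and 2 fell, of 11 axonemal dynein heavy chains, 1 rose and 2 fell, and of 68 microRNA rows, 8 rose and 7 fell. These small counts moved with single libraries: the falls among ribosomal protein genes were 1 without cKO 1 and 11 without cKO 3. Leaving out 1 library gave 1 to 6 rises of ribosomal protein genes, 0 to 3 rises and 7 to 10 falls of respiratory chain genes, and 2 to 7 rises of proteasome genes. It gave 0 to 4 rises and 1 to 4 falls of histone genes, 2 to 4 rises and 0 to 3 falls of RNA-binding protein genes, 0 or 1 rises of dynein heavy chains, and 4 to 9 falls of microRNA rows. Of 11 germ cell heat shock genes, 5 fell and 1 rose (0 without cKO 2, control 1, control 2 or control 4). Hspa1l, a chaperone of spermatids, fell from 331, 202, 429.8 and 481 CPM in controls to 52.6, 56.1 and 56 CPM in cKO (-2.72), without overlap.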

How the data were processed

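CBs were isolated by DDX4 immunoprecipitation, and the authors sequenced total RNA with a directional kit and paired ends. Reads were trimmed with cutadapt 2.8 and mapped to GRCm38/mm10 with STAR (version 2.7.1a in the submitters' processing notes). The authors counted genes and elements with TEtranscripts on the reverse strand, and the deposited CB and RS tables hold raw counts. The deposited precursor and transcript tables hold estimated counts that the authors made with featureCounts 2.0.1, sharing a read among precursors or transcripts as fractions, and these were rounded here. Libraries were mapped to genotype, not to a numbered sample, because column names carry other numbers than the labels.

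Genes that reached 10 counts in 3 libraries were tested with edgeR 4.0.16 (limma 3.58.1, R 4.3.3), TMM factors, the quasi-likelihood test, two-sided, and Benjamini-Hochberg adjustment. DESeq2 1.42.0 was an alternative. Transcripts needed 20 counts in 3 libraries and precursors 10 in total. Precursors used the gene library sizes. Rn45s was left out of library sizes. Calls needed an adjusted p of at most 0.05 and a log2 difference of at least 1.5. The fits were tested on simulated data with 200 genes changed by a log2 value of 2. In the CB gene fit 89.5% of these were recovered among 14050 genes, and in the interaction fit 78% among 13864. Of the genes that passed, 5.29% and 4.88% were false. The simulation changed far fewer genes than passed in the data and gave each gene 1 base level in CBs and RS. It therefore does not give the recovery in these data. Named genes were list members, the 12 highest and 12 lowest called genes that averaged 100 or more normalized counts without overlap of the groups, the 10 most abundant per genotype, the 5 most positive and 5 most negative called interactions among genes that averaged 100 or more normalized counts in CBs, the extreme precursors, and genes the study named. Members and lists were chosen with earlier results of these data known. Libraries are pools of mice, and p-values measure the spread between pools. Gene counts per library ranged from 1279893 (cKO 2) to 7684257 (control 4), so low genes are least certain in cKO 2. The omission of each RS library in turn, and of Aif1 from the macrophage sum, was chosen after the data were seen. Some genes that the rule names are not reported here.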

Additional observations from a re-analysis of the deposited data

Results flagged for a closer look

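Of 139 values, 15 had 1 control library far from the other 3 by Dixon's test. The rate of about 1 in 20 by chance holds for independent, normally distributed values. These values were of chosen genes and are not independent (the macrophage sum contains Aif1), so the 15 cannot be set against that rate. Control 3 was the outlying library for 10: 2410006H16Rik (12.5 CPM), Abca1 (62.2), Myh9 (28.8), Snhg11 (17.9), Csf1r (11.3), Aif1 (376), Zbtb16 (6.26), Stra8 (12.1), Rnu11 (192) and the macrophage sum (408). Control 4 was outlying for Tmem56 (70.9), Fhl5 (99.2) and Mael (332), control 1 for Atf3 (3.37) and control 2 for Exosc2 (10.8).

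The genotype difference differed between CBs and RS, by the interaction test, for 460 genes that were more positive and 325 that were more negative in CBs. Among named genes the positive interactions (log2) were Mir6236 4.20, 4930567H17Rik 3.11, Ccdc57 3.08, Mical3 2.95, Elfn2 2.87, Tnp1 2.34, Prm2 2.16, Malat1 2.14, Tnp2 2.13, Upf3a 1.93, Neat1 1.83 and Hsp90aa1 1.67. Without cKO 2, Hsp90aa1 was 0.81 (edgeR adjusted p = 0.098), and its adjusted p was 0.054 without control 1 and 0.055 to 0.063 without RS cKO 1 or any RS control library. The negative ones were Pisd-ps2 -3.56, Gm16973 -3.20, Snhg12 -3.14, Gm10619 -3.13, Pfas -2.77, Pisd-ps1 -2.71, Lpxn -2.36, Rassf1 -1.84, Slc38a6 -1.82, Snhg5 -1.67 and Tdrd5 -1.62.

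Repeat elements stand outside the gene comparison. Of 1028 element subfamilies tested with the genes, 5 were called higher and 6 lower in cKO CBs.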

How the results depend on the processing

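No paired analysis was possible because the CB columns do not carry the replicate numbers of the labels. Under the alternatives, 2315 of the results for named genes kept their side of the threshold and direction, 93 lost it, 14 gained it and 9 changed sign, and of the list counts 925 stayed within 1.5 times the reported count and 131 did not. Without a filter beyond 1 count, 1170 CB genes were called higher. Leaving out 1 library gave 438 to 948 higher CB genes, 1 to 8 higher precursors 328 to 810 higher transcripts, and 300 to 537 genes with a more positive interaction. With library size alone the interaction gave 105 and 1465 genes and the transcripts 316 higher and 2935 lower, and with 1 transcript per gene 370 and 683. Leaving out 1 library changed the sign of values near 0: Smg6 in CBs (-0.174 to 0.032), Slc38a6 (-0.177 to 0.129), the Hnrnpll interaction (-0.147 to 0.499), the Smg6 interaction (-0.267 to 0.055), and the cKO minus control share of Rn45s (-0.265 to 5.97 percentage points), share of elements (-2.37 to 4.28) and peritubular sum (-8.93 to 12.2 CPM). Without controls 2 and 3, whose column names carry another prefix than controls 1 and 4, Slc38a6 was 0.206 and the Smg6 interaction 0.015, and with library size alone the Hnrnpll interaction was -0.364. The cause was not tested, beyond the fewer libraries or genes that a setting holds by construction.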

Other observations

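Among repeat elements, the major satellite GSAT_MM, the repeat of mouse pericentromeres, stood at 544, 982 and 247 CPM of genes and elements in the 3 cKO libraries and at 39.8, 37.3, 53.7 and 71.0 CPM in the 4 controls, without overlap (log2 difference 3.54, SE 0.39, edgeR adjusted p = 7.3e-05). The satellite SYNREP_MM (1.66) and the retroviral IAPEY4_I-int (1.88), IAPEY5_I-int (1.90) and RLTR12F (1.68) were also called higher. SYNREP_MM was low and highest in cKO 2, with 7.17, 18.2 and 3.16 CPM in the cKO libraries. In the other direction, RLTR9E (-5.90) rested on control 3 (12624 CPM) and control 4 (2530 CPM), while the other control libraries (77.2 and 84.1 CPM) lay near the cKO libraries (79.3, 55.9 and 56.8 CPM). UCON13, Eulor2B, nhAT5a_ML, LTR90B and MER65-int were called lower, but each had at most 9 counts in any cKO library.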
